A study of Solanum lycopersicum with 18 samples.

Results

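The genes described here encode 9 cell wall proteins that act while a tomato fruit softens. They were found by gene ID among the 34725 annotated gene IDs of the tables, and all 9 were listed in every table. Polygalacturonase PG2a and pectate lyase PL cut the pectin backbone, and the pectin methylesterases PME1, PME2 and PMEU1 remove methyl groups from it. The beta-galactosidase TBG4 trims galactan side chains of pectin. Expansin EXP1 loosens the contact between cellulose and other polymers without cutting them, endoglucanase CEL2 cuts glucan chains and endo-mannanase MAN4 cuts mannans. Ripening tomato fruit is known to switch on most of these genes together, downstream of ethylene, and the wall loses pectin and cohesion as the enzymes act in sequence.

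RNA was sequenced from red ripe fruit of the varieties H (Heinz, the variety of the tomato reference genome), SM (San Marzano) and RSV (Vesuviano), grown in open fields at Acerra and at Sarno in Campania, southern Italy. The 6 groups, H, SM and RSV at Acerra and at Sarno, each held 3 libraries, 18 in all, and no group carried a transgene or received a treatment. Whether the 3 replicates of a group were separate plots or aliquots of pooled fruit is not settled by the sources used here, so SDs and p-values measure the spread between these libraries, which may be technical. Expression is given as the deposited FPKM, from which the number of reads behind a value cannot be read. By name, FPKM are sequenced fragments, divided by transcript length and by the mapped fragments of the library. Whether the libraries were also scaled to each other is not given in the sources used here.

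The library RSV Sarno replicate 3 stood apart. Its summed FPKM was 3279110, against 892841 to 1433620 in the other 17 libraries, and a single locus held 30.3% of it. A single locus also held 29.2% of the sum in SM Sarno replicate 1 and 26.0% in SM Acerra replicate 2. The median ratio of RSV Sarno replicate 3 to the mean library of its variety was 0.981, within the range of 0.903 to 1.04 over all libraries. The tests of the 9 genes, the counts and the medians for RSV are therefore also given without it. The fruit label was checked with ripening and green tissue genes. ACS2, the ethylene synthesis gene of ripening, lay between 20.3 and 532 FPKM, with the highest value in RSV Sarno replicate 3, and PG2a was at least 1116 FPKM in all 18 libraries. Summed over Solyc03g115900 and Solyc05g056050, which encode chlorophyll a-b binding proteins of green tissue, expression was 0 to 0.190 FPKM in the 9 Acerra libraries and 0.413 to 14.6 FPKM in the 9 Sarno libraries, so this low signal was higher at Sarno in every variety. In bulk fruit, fewer cells of a type and less RNA per cell cannot be told apart.

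PG2a was the most abundant of the 9 genes in all 6 groups, PL was second in all 6 and the tested locus of PMEU1 was last in all 6. With both loci that carry its ID in SM and RSV added together, PMEU1 was above CEL2 in SM Acerra, at 14.4 against 9.85 FPKM. PME1 held the third place except in RSV at Sarno, where EXP1 did. FPKM is scaled to transcript length, so levels of different genes can be set side by side within a library. In SM the PG2a and PL libraries were separate at both locations, whereas in H and in RSV they overlapped. Of the SM genes at Acerra, only MAN4 and PME2 overlapped among neighbours in the order. In H at Acerra the neighbours PL and PME1, and MAN4 and EXP1, overlapped as well. The 9 genes together held 0.188% to 1.28% of the summed FPKM of a library. The lowest share was that of RSV Sarno replicate 3, and without it the shares started at 0.289%. PG2a and PL made up between 61.8% and 89.9% of the summed FPKM of the 9 genes.

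**Figure D1:**
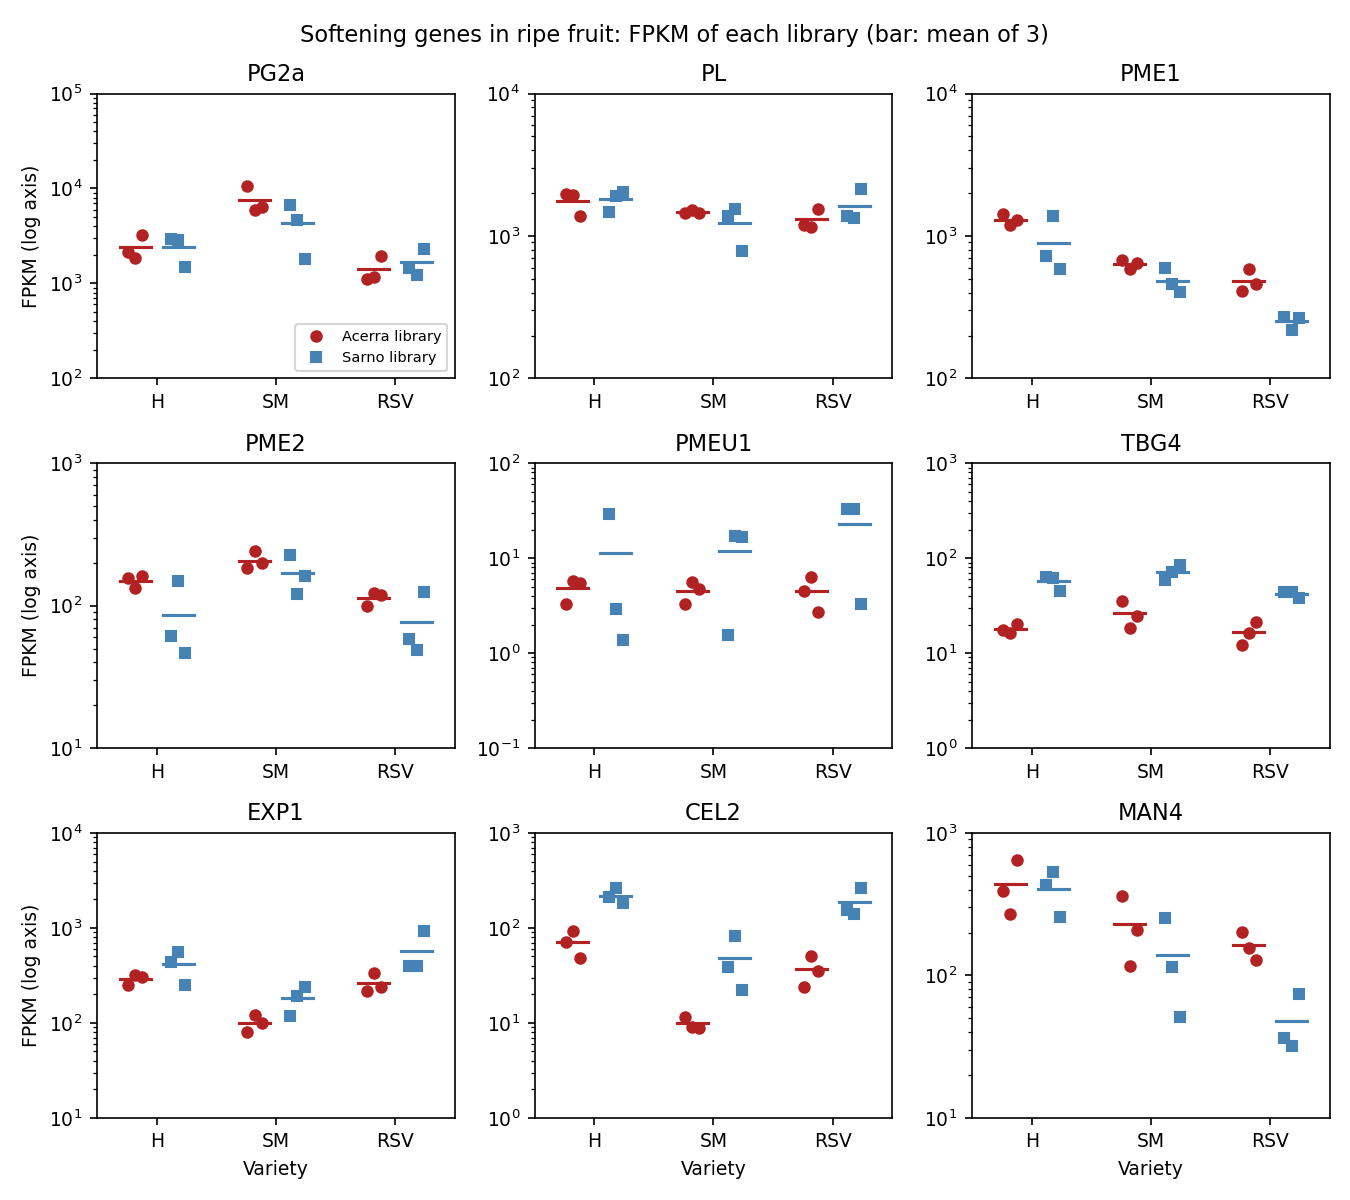
FPKM of the 9 softening genes (log axis) in each library, by variety, with Acerra as circles, Sarno as squares and a bar for the mean of 3 libraries. TBG4 and CEL2 are higher in every Sarno library than in any Acerra library of the same variety, PG2a and PL overlap in all 3 varieties, and PME1 and MAN4 separate in RSV only.

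The locations were set against each other inside each variety, to describe how expression of these genes differed between the fields. The study describes a single field at each location in a single summer, so the location itself has no replicate. Field, soil and weather cannot be told apart, and the p-values compare these libraries, not environments in general. A gene is called where the adjusted p of limma was below 0.05, and a positive log2 difference means higher at Acerra. In H, 2 of the 9 genes were called, beside 8.83% of the 18089 loci tested. In SM 2 of 9 were called, beside 8.21% of 18150 loci, and in RSV 4 of 9, beside 11.8% of 18328 loci. TBG4 and CEL2 accounted for both calls in H and in SM, and PME1 and MAN4 were added in RSV. Without RSV Sarno replicate 3 the RSV count was 6, with PME2 and PMEU1 added, beside 22.8% of 18277 loci, so the share of all loci rose as well. Of the 8 calls, 6 were higher at Sarno and 2 at Acerra. Loci called higher at Sarno were 2.26% of those tested for H, 2.14% for SM and 5.72% for RSV, and loci called higher at Acerra were 6.58%, 6.07% and 6.11%. The locations did not overlap for 2 of the 9 genes in H, beside 36.9% of all loci, for 2 in SM, beside 33.1%, and for 5 in RSV, beside 37.9%. In RSV it was 7 without Sarno replicate 3, beside 56.4% of loci. In 7 of these 9 cases the Sarno libraries were the higher ones. Over all loci, Sarno was wholly above Acerra for 12.4% in H, 14.9% in SM and 19.4% in RSV, and Acerra wholly above Sarno for 24.5%, 18.2% and 18.5%. The median log2 difference of the 9 genes was -0.045 (H), 0.32 (SM) and -0.28 (RSV), beside 0.096, 0.023 and -0.015 over all loci tested. Without RSV Sarno replicate 3 the RSV median was -0.066, beside -0.011 over all loci. Of all called loci, 74.5% in H and 74.0% in SM were higher at Acerra, but 51.1% and 53.3% after quantile normalization. The 3 comparisons share no library.

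**Figure D2:**
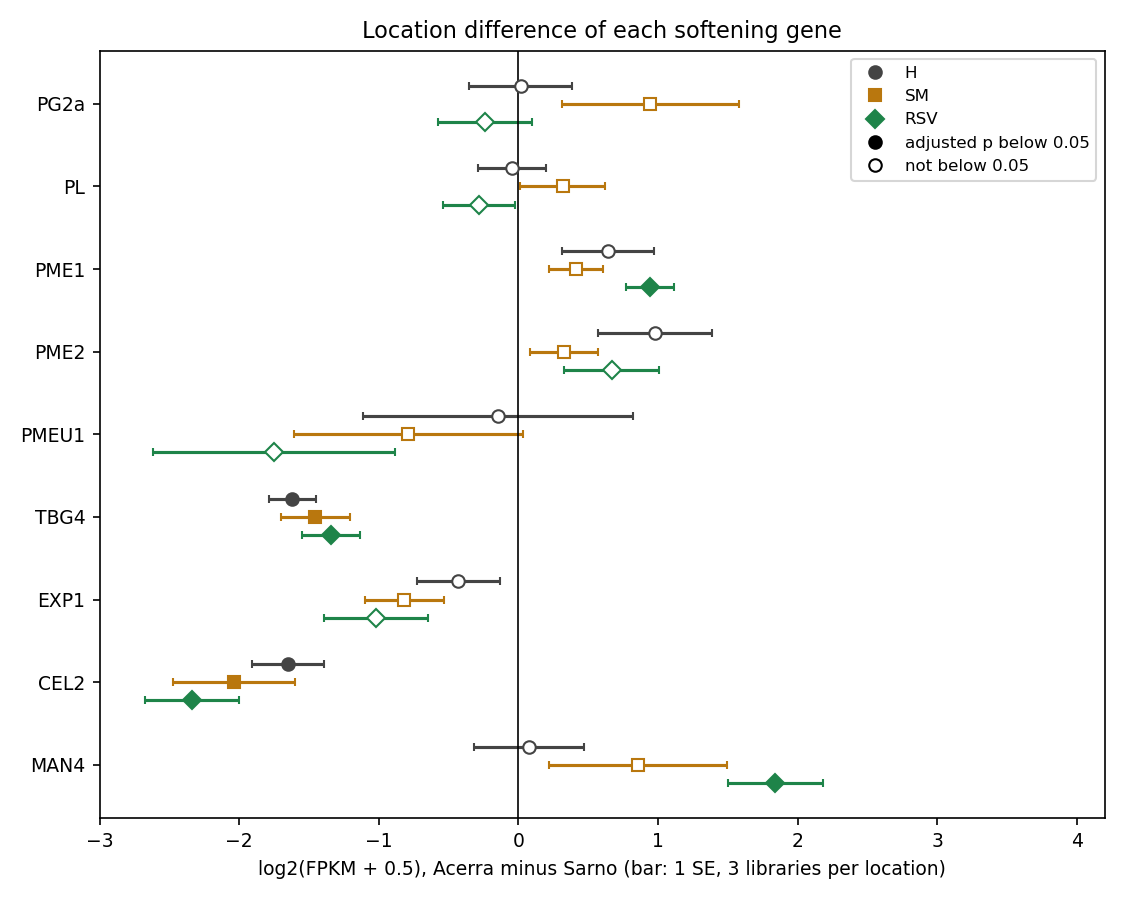
Difference between Acerra and Sarno for each gene and variety, in log2(FPKM + 0.5), with bars of 1 SE from 3 libraries per location. Filled symbols have a limma adjusted p below 0.05: TBG4 and CEL2 lie below 0 in all 3 varieties, and PME1 and MAN4 of RSV lie above 0.

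TBG4 (Solyc12g008840, chromosome 12, 2183615 to 2190700 on SL2.40, the reference genome build used for H) is a beta-galactosidase that also cuts galactan, and its suppression is known to give firmer fruit. In H it was at 17.7, 16.2 and 20.2 FPKM in Acerra and at 63.2, 62.3 and 45.1 FPKM in Sarno. In SM the values were 35.6, 18.6 and 24.7 FPKM against 58.5, 71.5 and 83.7 FPKM. In RSV they were 12.1, 16.4 and 21.4 FPKM against 44.5, 43.6 and 37.7 FPKM. All Sarno libraries were above all Acerra libraries in each variety. The mean rose from 18.03 ± 2.06 (SD, n = 3) at Acerra to 56.9 ± 10.2 FPKM at Sarno in H, a ratio of 3.16. The ratio of Sarno to Acerra was 2.71 in SM and 2.53 in RSV. On the log2 scale the difference was -1.62 in H (SE 0.17, adjusted p = 0.0174), -1.46 in SM (SE 0.25, adjusted p = 0.0197), -1.34 in RSV (SE 0.21, adjusted p = 0.0140) and -1.42 (adjusted p = 0.00943) in RSV without Sarno replicate 3. The exact two-sided permutation test gave p = 0.1 in each variety, the smallest that 3 libraries against 3 can give.

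The difference of TBG4 kept its direction without any single library, but the call was lost without 3 of the 6 libraries in each variety. In H the adjusted p was 0.0521, 0.0836 and 0.0672 without Acerra replicates 1, 2 and 3. In SM it was 0.0535 and 0.0908 without Acerra replicates 2 and 3 and 0.0623 without Sarno replicate 3, and in RSV it was 0.0544 without Acerra replicate 2 and 0.0619 and 0.0569 without Sarno replicates 1 and 2. The study lists TBG4 and CEL2 among genes with variants specific to SM that were differentially expressed there. That list gives no direction and was drawn from these same libraries, so it is not independent evidence of a difference.

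CEL2 (Solyc09g010210, chromosome 9, 3596590 to 3602048 on SL2.40) encodes an endo-1,4-beta-glucanase, a class of enzymes also known from the shedding of flowers and fruit. Its fitted log2 difference between the locations was the largest of the 9 genes in every variety. By the ratio of means TBG4 was slightly ahead of it in H and PMEU1 in RSV. H libraries held it at 71.2, 92.8 and 48.6 FPKM in Acerra and at 214, 260.1 and 183 FPKM in Sarno. In SM the Acerra libraries were low, at 11.6, 9.14 and 8.84 FPKM, and the Sarno libraries were at 39.0, 82.6 and 22.3 FPKM. In RSV the values were 24.0, 51.1 and 35.6 FPKM in Acerra and 156, 141 and 265 FPKM in Sarno. Sarno was above Acerra in every library of all varieties. The ratio of the Sarno to the Acerra mean was 3.09 (H), 4.87 (SM) and 5.08 (RSV). The fitted log2 difference was -1.65 (SE 0.26, adjusted p = 0.0220) in H, -2.04 (SE 0.43, adjusted p = 0.0382) in SM and -2.34 (SE 0.34, adjusted p = 0.0121) in RSV, and -2.06 (adjusted p = 0.00678) in RSV without Sarno replicate 3. CEL2 had the widest span of the 9 genes over the 18 libraries, a ratio of 30.0. It ran from 8.84 FPKM in SM Acerra to 265 FPKM in RSV Sarno replicate 3, the library that stood apart. The next highest value was 260.1 FPKM, in H Sarno. The ends of the span are from different varieties, whose levels were not tested against each other.

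The call of CEL2 in RSV was kept without each of the 6 libraries in turn, with adjusted p up to 0.0490. In H it was lost without Acerra replicate 1, 2 or 3 (adjusted p = 0.0759, 0.0836 and 0.0711) or Sarno replicate 2 (0.0556), and in SM without Acerra replicate 1, 2 or 3 (0.0897, 0.117 and 0.140) or Sarno replicate 1 (0.0736), with no filter on low values (0.0747) and in a fit without a trend (0.0510).

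The chlorophyll-binding sum was also higher at Sarno in every variety, but limma called neither of its genes. For Solyc03g115900 the adjusted p lay between 0.0556 (RSV) and 0.210 (SM). Solyc05g056050 was tested in SM only and was not called. A location difference of these genes is therefore not established by this test. Yet the sum was 0.413 to 14.6 FPKM in the Sarno libraries and 0 to 0.190 FPKM in those of Acerra, with no overlap. The study lists Solyc03g115900, from these same libraries, among RSV genes with a high ratio at Sarno. RSV Sarno replicate 3 held this gene at 0.785 FPKM, against 8.90 and 8.04 FPKM in replicates 1 and 2. In SM the sum was 0.519, 1.27 and 14.6 FPKM in Sarno replicates 1, 2 and 3. TBG4 was at 58.5, 71.5 and 83.7 FPKM there and CEL2 at 39.0, 82.6 and 22.3 FPKM. In RSV the sum was 9.98, 8.98 and 1.07 FPKM in the Sarno replicates, with TBG4 at 44.5, 43.6 and 37.7 FPKM and CEL2 at 156, 141 and 265 FPKM. TBG4 thus had the order of the sum in SM and RSV, but it did not in H. CEL2 was lowest in the SM and highest in the RSV library where the sum was highest and lowest. In H Sarno replicate 2 the sum was lowest, at 0.413 FPKM, with TBG4 at 62.3 and CEL2 at 260.1 FPKM. The lowest TBG4 value of H Sarno, 45.1 FPKM, was that of replicate 3. The part of green tissue in the location differences was not tested.

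Ratios within a library do not depend on how libraries are scaled to each other. Per 1000 FPKM of PG2a, CEL2 stood at 14.96 to 50.6 FPKM in the H libraries of Acerra and at 73.1 to 124 FPKM in those of Sarno. In SM the ratio was 1.10 to 1.54 FPKM at Acerra and 5.85 to 17.7 FPKM at Sarno. In RSV it was 18.4 to 43.6 FPKM at Acerra and 107 to 115 FPKM at Sarno. The locations did not overlap in any variety. Per 1000 FPKM of PL, TBG4 stood at 8.29 to 14.8 FPKM at Acerra and 22.05 to 42.8 FPKM at Sarno in H. In SM it was at 12.2 to 24.5 against 42.6 to 107 FPKM, and in RSV at 10.05 to 14.1 against 17.7 to 32.8 FPKM. These ratios did not overlap either, with RSV Sarno replicate 3 as the lowest of the RSV Sarno libraries. CEL2 and TBG4 were already called and without overlap in every variety, and PG2a and PL were called in none. The separation of the ratios is therefore a description and not further evidence of a difference.

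**Figure D3:**
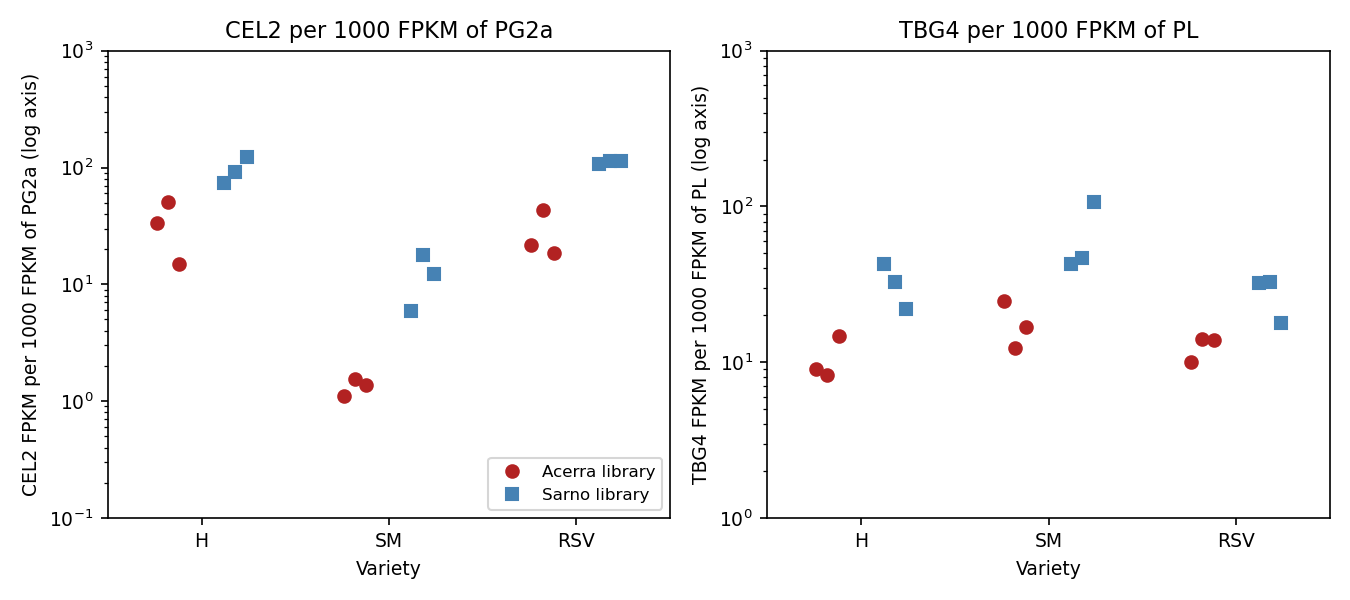
Left, CEL2 FPKM per 1000 FPKM of PG2a in the same library, and right, TBG4 FPKM per 1000 FPKM of PL (log axes), with 3 Acerra libraries as circles and 3 Sarno libraries as squares for each variety. Within each variety every Sarno library lies above every Acerra library in both panels.

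The enzymes that cut the pectin backbone did not pass the test in any variety. PG2a (Solyc10g080210, chromosome 10, 60883699 to 60890335 on SL2.40) was at 2131, 1833 and 3249 FPKM in H Acerra and at 2923, 2849 and 1476 FPKM in H Sarno. In SM it reached 10515, 5937 and 6415 FPKM in Acerra and 6670.2, 4663 and 1808 FPKM in Sarno. In RSV it was at 1116, 1172 and 1929 FPKM in Acerra and at 1458, 1228 and 2328 FPKM in Sarno. The locations overlapped in every variety. The log2 difference was 0.015 (SE 0.37, adjusted p = 0.983) in H, 0.94 (SE 0.63, adjusted p = 0.391) in SM and -0.24 (SE 0.34, adjusted p = 0.671) in RSV. In H its sign turned with the scaling, to -0.11 after rescaling by the median ratio and to -0.28 after quantile normalization, and in RSV it turned to 0.026 without Sarno replicate 3. PG2a made up between 30.2% and 46.1% of the summed FPKM of the 9 genes in H, between 50.6% and 78.9% in SM and between 32.5% and 43.0% in RSV. Levels of the varieties come from separate runs on separate assemblies, so they were not tested against each other.

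PL (Solyc03g111690, chromosome 3, 56396336 to 56398488 on SL2.40), whose silencing is known to slow softening, was the steadiest of the 9 genes over the 18 libraries, between 786 and 2125 FPKM. In H it was at 1955, 1953 and 1369 FPKM in Acerra and at 1477, 1900.5 and 2045 FPKM in Sarno. In SM 5 libraries lay between 1373 and 1544 FPKM, and Sarno replicate 3 at 786 FPKM. In RSV the Acerra libraries were at 1202, 1164 and 1552 FPKM and those of Sarno at 1381, 1331 and 2125 FPKM. The log2 difference was -0.045 (SE 0.24, adjusted p = 0.920) in H, 0.32 (SE 0.31, adjusted p = 0.550) in SM and -0.28 (SE 0.26, adjusted p = 0.501) in RSV. Without RSV Sarno replicate 3 the RSV value was -0.066 (adjusted p = 0.830). In SM Sarno replicate 3, PG2a, PL, PME1 and MAN4 were all at their lowest SM values, TBG4 and EXP1 were at their highest, and the chlorophyll-binding sum was the highest of all libraries. Without that library the SM log2 difference was 0.40 for PG2a, 0.021 for PL, 0.29 for PME1 and 0.28 for MAN4. It was -1.33 for TBG4 and -0.59 for EXP1.

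Among the methylesterases, PME1 (Solyc07g064170, chromosome 7, 63653755 to 63656317 on SL2.40) was called in RSV, where it was higher at Acerra. PME1 was at 411, 585 and 463 FPKM in RSV Acerra and at 270.5, 219 and 264 FPKM in RSV Sarno, with no overlap. The mean was 486 ± 89.1 FPKM at Acerra and 251 ± 27.6 FPKM at Sarno (SD, n = 3), a ratio of 1.94, with a log2 difference of 0.94 (SE 0.17, adjusted p = 0.0204). In H the values were 1428, 1189 and 1296 FPKM in Acerra and 718, 1372 and 586 FPKM in Sarno, with a log2 difference of 0.64 (SE 0.33, adjusted p = 0.243). In SM they were 676, 588 and 649 FPKM against 591, 461 and 402 FPKM, with a log2 difference of 0.41 (SE 0.19, adjusted p = 0.232). Both overlapped between the locations. The RSV call was lost without Acerra replicate 2 or 3 (adjusted p = 0.0641 and 0.0728), without Sarno replicate 1 or 2 (0.0626 and 0.0708) and with the replicate number as a block (0.0694), and kept without Sarno replicate 3 (log2 difference 0.98, adjusted p = 0.0161).

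PME2 (Solyc07g064180) lies 7296 bases beyond PME1 on the same chromosome, at 63663613 to 63668703 on SL2.40, in a locus that joins it with Solyc07g064190 in every variety. Its values are those of the joined locus, and as PME1 and PME2 are related copies their reads may be split between them. Libraries of H held PME2 at 155, 133 and 162 FPKM in Acerra and at 61.4, 149.9 and 46.8 FPKM in Sarno. In SM the values were 183, 241 and 198 FPKM against 226, 120.4 and 162 FPKM, and in RSV 99.2, 122 and 118 FPKM against 57.9, 49.1 and 124 FPKM. In H and in RSV a single Sarno library, replicate 2 of H and replicate 3 of RSV, lay among or above the Acerra libraries. PME2 had a log2 difference of 0.98 (SE 0.41, adjusted p = 0.169) in H, 0.33 (SE 0.24, adjusted p = 0.436) in SM and 0.67 (SE 0.34, adjusted p = 0.238) in RSV. PME2 passed the test without H Sarno replicate 2 (log2 difference 1.47, adjusted p = 0.0326) and without RSV Sarno replicate 3 (1.07, adjusted p = 0.00396).

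PMEU1 (Solyc03g123630, chromosome 3, 64477212 to 64481386 on SL2.40), a methylesterase known from many tissues, was the least abundant of the 9 genes by the locus tested. In H it was at 3.28, 5.81 and 5.50 FPKM in Acerra and at 29.4, 2.93 and 1.39 FPKM in Sarno. In SM and in RSV the ID was carried by 2 loci with the same coordinates, and the one with the higher locus number was tested. It was at 3.32, 5.63 and 4.69 FPKM in SM Acerra and at 1.55, 17.1 and 16.9 FPKM in SM Sarno. In RSV it was at 4.53, 6.33 and 2.69 FPKM in Acerra and at 32.8, 32.9 and 3.26 FPKM in Sarno. The Sarno libraries thus split into high and low ones in each variety, with SDs of 15.7, 8.91 and 17.1 FPKM in H, SM and RSV. The log2 difference was -0.15 (SE 0.97, adjusted p = 0.936) in H, -0.79 (SE 0.82, adjusted p = 0.580) in SM and -1.75 (SE 0.87, adjusted p = 0.230) in RSV. It was -1.82 (adjusted p = 0.0100) without SM Sarno replicate 1 and -2.80 (adjusted p = 0.00281) without RSV Sarno replicate 3, and in H it turned to 1.04 (adjusted p = 0.132) without Sarno replicate 1.

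The libraries with high PMEU1 in H and RSV also had the highest chlorophyll-binding sums of their varieties, at 5.04 FPKM in H Sarno replicate 1 and at 9.98 and 8.98 FPKM in RSV Sarno replicates 1 and 2. In SM the sum was 1.27 and 14.6 FPKM in Sarno replicates 2 and 3, where PMEU1 was high, and 0.519 FPKM in replicate 1, where it was low. Whether green tissue had a part in PMEU1 was not tested. The other locus with this ID had a log2 difference of 1.13 (SE 0.74, adjusted p = 0.376) in SM and 1.03 (SE 0.64, adjusted p = 0.329) in RSV, opposite in sign to the locus tested. The sum of both loci was 14.4 ± 6.53 FPKM at Acerra and 16.5 ± 12.3 FPKM at Sarno in SM, and 9.83 ± 2.15 against 26.0 ± 19.3 FPKM in RSV (SD, n = 3).

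EXP1 (Solyc06g051800, chromosome 6, 31967806 to 31969622 on SL2.40), the expansin of ripening fruit, had a higher mean at Sarno in every variety and was not called in any. Libraries of H held EXP1 at 253, 322 and 303 FPKM in Acerra and at 433, 554 and 252 FPKM in Sarno, so the locations overlapped. In SM they overlapped as well, at 80.7, 119.7 and 101 FPKM against 118, 190.1 and 240.0 FPKM. In RSV they did not, at 217, 338 and 239.7 FPKM against 396, 397 and 934 FPKM. The value of 934 FPKM was that of RSV Sarno replicate 3. EXP1 had a log2 difference of -0.43 (SE 0.30, adjusted p = 0.370) in H, -0.82 (SE 0.28, adjusted p = 0.129) in SM and -1.02 (SE 0.37, adjusted p = 0.126) in RSV. Without RSV Sarno replicate 3 the RSV difference was -0.61 (adjusted p = 0.0782), and without SM Sarno replicate 1 the SM difference was -1.10 and passed the test (adjusted p = 0.0377).

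MAN4 (Solyc01g008710, chromosome 1, 2755065 to 2758116 on SL2.40), an endo-mannanase of ripening fruit, was called in RSV, where it was higher at Acerra. It was at 202, 157 and 128 FPKM in RSV Acerra and at 36.5, 31.8 and 74.3 FPKM in RSV Sarno, with no overlap. The mean was 162 ± 37.1 FPKM at Acerra and 47.5 ± 23.3 FPKM at Sarno (SD, n = 3), a ratio of 3.42, with a log2 difference of 1.84 (SE 0.34, adjusted p = 0.0217). In H the libraries overlapped, at 392, 269 and 649 FPKM in Acerra and 428, 535 and 257 FPKM in Sarno, with a log2 difference of 0.072 (SE 0.39, adjusted p = 0.921) that turned to -0.049 after rescaling and to -0.35 after quantile normalization. In SM they also overlapped, at 361, 116 and 209 FPKM against 253, 114 and 50.9 FPKM, with a log2 difference of 0.85 (SE 0.64, adjusted p = 0.439). The RSV call was kept without Sarno replicate 3 (log2 difference 2.21, adjusted p = 0.00151). It was lost without Acerra replicate 1, 2 or 3 (adjusted p = 0.0821, 0.0738 and 0.0577), without Sarno replicate 1 or 2 (0.0832 and 0.0698) and with the replicate number as a block (0.0583).

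**Figure D4:**
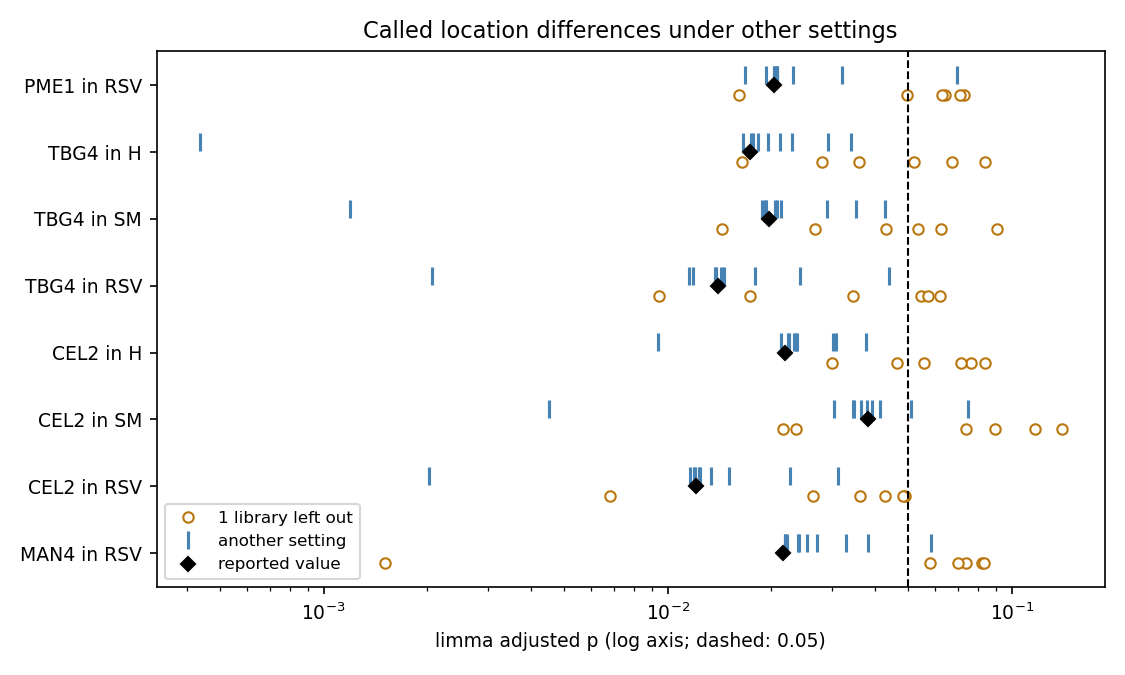
Adjusted p (log axis, dashed line at 0.05) of the 8 called location differences as reported (diamonds), under other settings of the test (ticks) and with a single library left out (circles). CEL2 in RSV stays below 0.05 in all of them, and MAN4 in RSV is below 0.05 in 1 of 6 fits that leave out a library.

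The difference between locations was then compared between varieties by an interaction over the 12 libraries of each pair. None of the 8 genes that could be matched was called in limma for any pair, beside 0.0847% of all loci for SM against H, 0.104% for RSV against H and 0.613% for RSV against SM. Without adjustment, p was below 0.05 for 0, 1 and 0 of them, in this order. That gene was MAN4, whose log2 difference between locations was larger in RSV than in H by 1.77 (SE 0.56, adjusted p = 0.179), and by 2.14 (SE 0.51, adjusted p = 0.0776) without RSV Sarno replicate 3. None of the 8 was called without that library either. The location differences of MAN4 in RSV and of PME1 in RSV are therefore not shown to differ from those of H or SM. For PME1 the RSV difference exceeded that of H by 0.30 (SE 0.39, adjusted p = 0.741) and that of SM by 0.53 (SE 0.25, adjusted p = 0.370). For TBG4 the 3 interactions lay between 0.11 and 0.28 on the log2 scale, with SEs of 0.28 to 0.35. For CEL2 they were -0.38 (SE 0.55) for SM against H, -0.68 (SE 0.46) for RSV against H and -0.30 (SE 0.60) for RSV against SM. PMEU1 was left out because its ID was doubled in SM and RSV.

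Over the 18 libraries, after subtraction of the variety mean, TBG4 and CEL2 varied together with r = 0.85, a description in which the points share the location and the library. After subtraction of the mean of each of the 6 groups, their r was 0.033. PG2a and MAN4 had r = 0.58 in the first and 0.84 in the second form, so they varied together among replicates. PME1 and its neighbour PME2 had 0.83 and 0.75, and PL and CEL2 had 0.28 and 0.70. Among the 12017 genes with a single ID in all varieties, Solyc02g062130 was most like TBG4 (r = 0.97) and Solyc07g064440 most like CEL2 (r = 0.94). These r are of the first form only. Each was picked as the highest of many over 18 libraries that share locations, so a high value follows in part from the choice. For the 9 genes the highest r lay between 0.86 and 0.97, and the names of these genes are not paired with their IDs in the tables.

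The annotated loci on either side of each gene were read as well. For TBG4 and CEL2 all 12 such loci over the 3 varieties were at or near 0, with group means up to 0.00901 FPKM. Of the 54 neighbour values of all 9 genes, 21 were under the minimum for the test, 30 were not called and 3 were called. The calls were PME1 as the neighbour of PME2 in RSV, and the pectinesterase Solyc03g123620, 1499 bases from PMEU1 in H. Solyc03g123620 was higher at Acerra in H, with means of 38.4 and 5.72 FPKM (log2 difference 2.70, SE 0.57, adjusted p = 0.0405). In SM its means were 31.1 FPKM at Acerra and 2.48 FPKM at Sarno (3.52, SE 0.44, adjusted p = 0.00709), and in RSV 32.1 and 13.8 FPKM (1.78, SE 0.90, adjusted p = 0.238). Without RSV Sarno replicate 3 the RSV value was 0.65 (SE 0.18, adjusted p = 0.0515). The library kit did not mark strand, so reads of overlapping genes cannot be told apart.

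Other cell wall genes were taken from those the study annotates by ID, 18 genes of which 9 encode xyloglucan endotransglucosylase/hydrolases (XTHs), which cut and rejoin xyloglucan. The study chose most of them on these libraries, so they are not independent evidence of a direction, and XTHs of a cluster resemble each other and may share reads. In H 11 of 17 tested genes were called, beside 8.83% of all loci tested, 9 higher at Acerra and 2 higher at Sarno. In SM 12 of 18 were called, 10 and 2, beside 8.21%, and in RSV 9 of 18, 6 and 3, beside 11.8%. In RSV 13 of 18 were called without Sarno replicate 3, 8 and 5, beside 22.8% of loci. The median log2 difference was then 0.43, beside -0.011 over all loci. With all libraries the median was 2.18 (H), 2.22 (SM) and 1.10 (RSV), beside 0.096, 0.023 and -0.015 over all loci. In RSV with all libraries, the 6 genes called higher at Acerra were all XTHs. The 9 other genes of RSV had 0 calls higher at Acerra and 2 higher at Sarno, with a median of -0.61. Without Sarno replicate 3, arabinogalactan (Solyc02g092790) was called higher at Acerra in RSV (adjusted p = 0.0162). In H and in SM the 9 other genes had 4 calls higher at Acerra and 2 higher at Sarno, with medians of 1.04 and 1.23. Among those of SM is arabinogalactan, whose ID was carried by 2 loci there, and the other locus is not given here. The locus tested was at means of 16.2 and 1.10 FPKM, against 376 and 91.5 FPKM in H and 545 and 250 FPKM in RSV (Acerra and Sarno). The XTH Solyc03g093080 was called higher at Acerra in every variety, with means of 231 against 33.6 FPKM in H, 163 against 17.4 FPKM in SM and 171 against 57.3 FPKM in RSV. Glucan synthase like 3 (Solyc01g006370), named for the synthesis of callose-type glucan, was called higher at Sarno in every variety, like TBG4 and CEL2, with means of 5.69 and 12.1 FPKM in H, 8.32 and 16.5 FPKM in SM and 5.20 and 8.22 FPKM in RSV.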

How the data were processed

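Reads of 18 TruSeq v2 libraries were demultiplexed with CASAVA 1.8.2, mapped with TopHat2 2.0.6 (H to SL2.40, SM and RSV to the assembly of each variety) and quantified with Cufflinks 2.1.1 by the authors, with multi-read correction and annotation-guided assembly, in a run per variety. The values deposited by the authors are FPKM per locus and replicate in 6 tables, with commas for decimal points. The scaling between libraries is not given in the sources used here. FPKM hold no counts, so no depth or counting interval was derived and precision rests on the 3 replicates.

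The members, lists and tests were chosen with earlier results of these data known. The text names the 9 members by ID, their annotated neighbours, the most similar genes by Pearson r (single-ID loci averaging 1 FPKM or more in each variety) and the cell wall list. Not all of these are printed. Where several loci carried an ID, the highest numbered was tested. log2(FPKM + 0.5) was fitted for loci averaging 0.5 FPKM or more with limma 3.58.1 in R 4.3.3 (eBayes with a trend, two-sided, Benjamini-Hochberg over all loci, threshold 0.05), so fold changes of low genes are understated. Interactions used genes matched by their whole ID field. The fits were tested on simulated data. Single genes were also given an exact permutation test with scipy 1.17.1. Python 3.11.15, numpy 2.4.6, pandas 2.3.3 and matplotlib 3.10.9 were used.

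Alternatives were pseudocounts of 0.1 and 1, no filter or a minimum mean of 1 FPKM, a fit of all 18 libraries, a replicate block, eBayes that was robust or had no trend, a required log2 change of 1, quantile normalization, rescaling by median ratios and the omission of each library. A further gene list was not used, since no annotation of its IDs was used here, and no sequences were analysed here.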

Additional observations from a re-analysis of the deposited data

How the results depend on the processing

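The precision of every value is limited by 3 libraries per group. With each library left out in turn, H had 3 to 1805 loci called (3 without Acerra replicate 2) and 0 to 2 of the softening genes. SM had 358 to 1646 loci (358 without Acerra replicate 3) and 0 to 3 of the genes, and RSV 589 to 4176 loci (4176 without Sarno replicate 3) and 1 to 6 of the genes. The 6 calls of TBG4 and CEL2 kept their direction under every alternative run. In H the 1598 loci called became 847 with quantile normalization, 796 with a minimum log2 fold change of 1 and 3531 with all 18 libraries in a fit. In SM the 1490 became 921 with the minimum fold change, and the 2 softening genes became 1 with no filter and 1 without a trend. In RSV the 2167 became 1065 with the minimum fold change, which left 3 of 4 softening genes without PME1, and 1121 with the replicate block, which left 2 of 4 softening genes.

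Replicate numbers were not taken to pair samples. Correlations of same-numbered Acerra and Sarno libraries lay between -0.03 and 0.27, and 5 of 9 were over 0.1. Those of libraries with different numbers lay between -0.22 and 0.14, and 11 of 18 libraries correlated best with their own number. A pairing is therefore not excluded. The block changed no other call of the softening genes.

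Interactions called 13 loci for SM against H (25 with no filter, 37 with all 18 libraries, 9 to 25 with a library left out), 16 for RSV against H (51, 32 and 13 to 120, 25 without a trend, 9 with the replicate block) and 93 for RSV against SM (161, 59 and 29 to 456, 61 with the block). None of the softening genes was called in any of these.

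Signs turned for uncalled values. In H, PG2a became -0.11 after rescaling, -0.28 with quantile normalization and -0.31 to 0.19 with a library left out, and MAN4 -0.049, -0.35 and -0.26 to 0.37. With a library left out, PL in H ranged from -0.18 to 0.13, PMEU1 in H from -0.95 to 1.04 and PG2a in RSV from -0.49 to 0.026. The interactions of SM against H ranged from -0.59 to 0.023 for PME1, -0.076 to 0.38 for TBG4 and -0.83 to 0.11 for CEL2. Those of RSV against H ranged from -0.51 to 0.066 for PG2a, -0.060 to 0.55 for PME1 and -0.80 to 0.091 for PME2, and those of RSV against SM from -0.11 to 0.35 for TBG4, -0.43 to 0.21 for EXP1 and -0.79 to 0.14 for CEL2. The cause was not tested. In H, rescaling moved the median log2 difference of all loci from 0.096 to -0.016.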
